A study of Arabidopsis thaliana with 23 samples.

Results

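The AP2-type flowering repressors described here are 4 genes, AP2 (AT4G36920), SMZ (AT3G54990), SNZ (AT2G39250) and TOE1 (AT2G28550, listed as RAP2.7 in the gene table), chosen by identifier from 27444 protein-coding genes of the 5 nuclear chromosomes. All 4 were found in the gene table, and none was left out by a filter. Their chromatin was read from lists of regions deposited for Arabidopsis thaliana flowers. In each list, the share of the gene body under domains of trimethylated lysine 27 of histone H3 (H3K27me3), or the presence of a REF6 peak summit in the body or within 1 kb of it, was recorded.

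The AP2-type repressors are transcription factors with a pair of AP2 DNA-binding domains, and their transcripts are targets of the microRNA miR172. They hold back flowering, in part by repressing FT, which encodes the mobile flowering signal, and miR172 relieves this repression as plants age. AP2 also specifies sepals and petals in the flower and restricts AGAMOUS. H3K27me3 is the mark deposited by Polycomb repressive complexes over silenced genes, and REF6, ELF6 and JMJ13 are Jumonji-type demethylases that remove it.

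Unopened flowers were taken from plants of the Col-0 background, 5 weeks old and grown in long days (22 °C, with nights at 20 °C), and analysed by chromatin immunoprecipitation and sequencing. H3K27me3 was profiled in wild-type plants (2 samples) and in a triple mutant labelled elf6-3ref6Cjmj13G (2 samples), which carries mutations in the 3 demethylase genes its label names. REF6 was precipitated through a GFP tag. REF6-GFP in ref6-3 was profiled with the protein crosslinker DSG (3 samples) and without it (3 samples). A construct titled REF6-ZnF-GFP was profiled, again with DSG, in ref6 (3 samples) and, under the REF6 promoter, in the triple mutant (2 samples). In the ref6 samples of this construct the genotype label names REF6p::REF6-GFP in ref6-3, unlike the titles, which are used here. The labels do not spell out what ZnF changes in the protein. Input DNA came from plants expressing GFP from UBQ10p. The other 8 of the 23 samples, input and histone H3, were not analysed here. The samples of a group were pooled into 1 list before deposit, so the values below have no replicate error and no difference between genotypes or constructs has a test. The read depth behind the lists is not used here, and region lists do not allow the tissue label to be checked against marker genes. The wild-type list held 7914 H3K27me3 domains and the triple mutant list 9391.

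The 4 genes split into 1 that was free of H3K27me3 and 3 that carried it. AP2 had no domain over any part of its 2860 bp body in either genotype, whereas SMZ, SNZ and TOE1 were marked in wild-type flowers, with at least 50% of the body covered. In the triple mutant, SNZ and TOE1 stayed at or above this limit and SMZ was below it. None of the 4 was a gained gene, defined by coverage under 10% in wild-type flowers and of 50% or more in mutant flowers, and none was lost by the reverse rule. None had a REF6-GFP summit, with or without DSG.

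**Figure D1:**
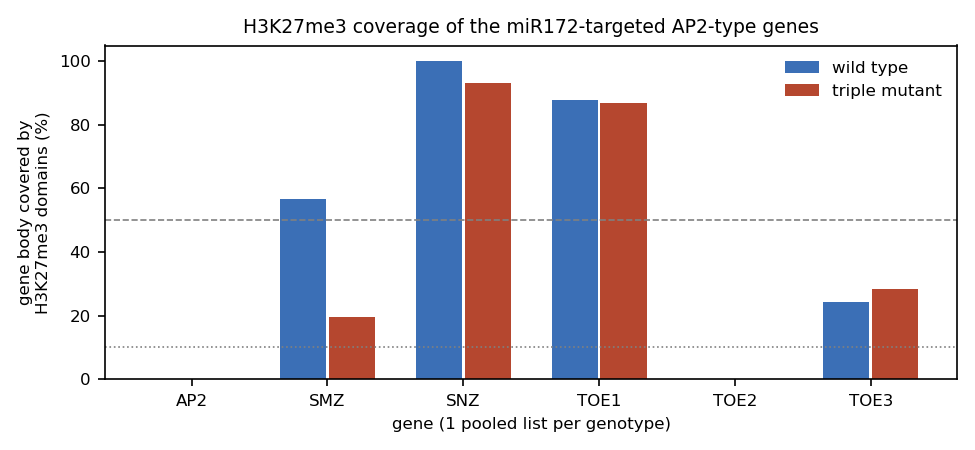
Share of each gene body covered by H3K27me3 domains in the wild type (blue) and the triple mutant (red), with 1 pooled list per genotype and hence no error bars; the dashed line marks 50% and the dotted line 10%. AP2 and TOE2 are at 0 in both genotypes, SNZ and TOE1 are at 86.9% or more in both, and SMZ goes from 56.6% to 19.5%.

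Among all coding genes, 23.7% were marked in wild-type and 30.9% in triple mutant flowers, so 3 of 4 and 2 of 4 members stood beside these shares. Gained genes made up 6.29% and lost genes 0.565% of coding genes. The median coverage of the 4 members was 72.2% in wild-type and 53.2% in triple mutant flowers, and over all coding genes both medians were 0. AP2 was 1 of 59.4% of coding genes with no covered base in either genotype.

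SMZ, a repressor that binds FT chromatin, had the largest difference between genotypes of the 4 genes. H3K27me3 covered 56.6% of its 2805 bp body in wild-type flowers and 19.5% in triple mutant flowers, a difference of -37.04 percentage points. In the wild type, 1 domain of 2832 bp (chromosome 3, 20374936 to 20377767, TAIR10) began 1218 bp inside the gene, counted from its lower-coordinate end, and ran 1245 bp past its higher-coordinate end. In the triple mutant the domain was 667 bp wide (chromosome 3, 20375975 to 20376641), began 2257 bp inside the gene and ended 119 bp past it. The triple mutant domain lay wholly inside the wild-type domain, which was thus covered over 23.6% of its length, and 12.8% of the 7914 wild-type domains were covered less. The median wild-type domain was covered over 89.9% of its length by triple mutant domains, and the first quartile was 64.3%.

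The remaining SMZ domain was narrow and had a high fold. The fold enrichment of a domain is the authors' own value, relative to a control not given in the sources used here, and it ranks domains within a list only. The wild-type domain had a fold of 3.24, rank 1828 of 7914, with a −log10 q of 65.5. The triple mutant domain had a fold of 4.88, rank 151 of 9391, with a −log10 q of 126.8. Of the 1851 triple mutant domains that were 667 bp wide or narrower, 1 had a fold this high, the SMZ domain itself, a comparison chosen after its values were seen. A second wild-type domain beyond SMZ, of 602 bp (chromosome 3, 20379519 to 20380120, −log10 q of 9.61), had no triple mutant domain over it. In the higher-coordinate 1 kb flank of SMZ, all 1000 bp were covered in the wild type and 119 bp in the triple mutant.

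**Figure D2:**
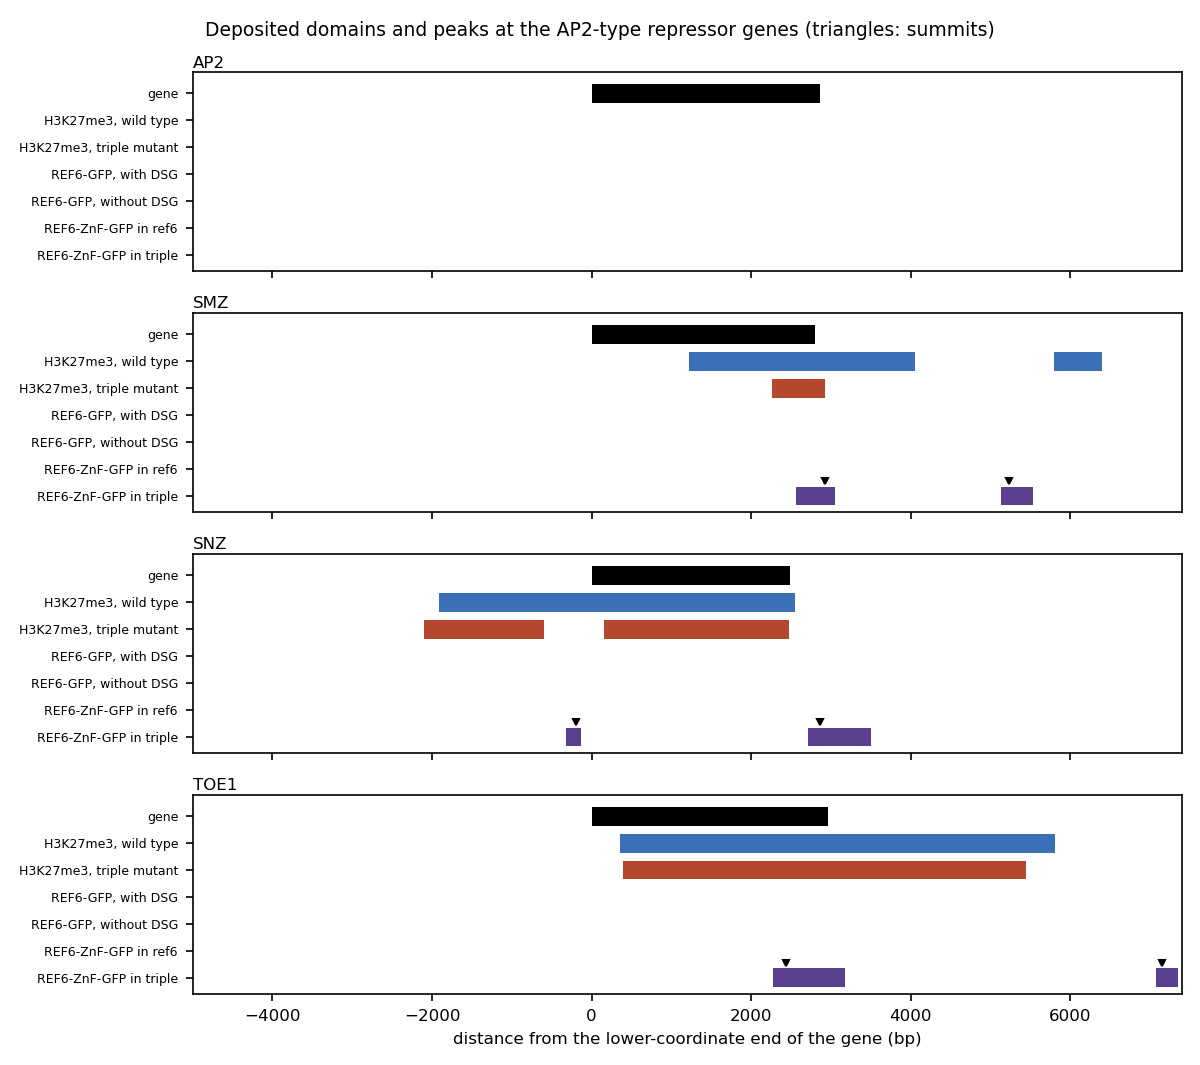
Deposited H3K27me3 domains (blue, wild type; red, triple mutant) and REF6 peaks (green, REF6-GFP; purple, REF6-ZnF-GFP) at the 4 genes, by distance in bp from the lower-coordinate end of each gene (black bar), with triangles at summits. AP2 has no region of any list in the window, SMZ keeps a 667 bp domain in the triple mutant, the SNZ domain is interrupted by 750 bp at 1 gene end, and no REF6-GFP peak is in any window.

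SNZ, a close relative of SMZ, was covered over all of its 2486 bp in wild-type flowers and over 93.1% in triple mutant flowers. The wild-type domain spanned 4456 bp (chromosome 2, 16386784 to 16391239), with a fold of 4.16, rank 705 of 7914. In the triple mutant this stretch held 2 domains, of 1504 bp (chromosome 2, 16386592 to 16388095) and 2315 bp (chromosome 2, 16388846 to 16391160). The gap between them was 750 bp and contained the lower-coordinate end of SNZ, from 595 bp outside the body to 155 bp inside it. The domain over the body had a fold of 4.03, rank 635 of 9391, and the one outside it had 1.97, rank 5476. In the 1 kb flank at that end, coverage was 100% in wild-type and 40.5% in triple mutant flowers.

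TOE1, which encodes a partner of the photoperiod regulator CONSTANS as well as a repressor of FT, had nearly the same coverage in both genotypes. Domains covered 87.9% of its 2969 bp body in wild-type and 86.9% in triple mutant flowers, a difference of 30 bp. The wild-type domain spanned 5451 bp (chromosome 2, 12226015 to 12231465) and the triple mutant domain 5055 bp (chromosome 2, 12226045 to 12231099). Both left the lower-coordinate end of the gene free, over 359 and 389 bp, and ran 2841 and 2475 bp past the other end. Their folds ranked lower within their lists than those of the domains over the SMZ and SNZ bodies, at 2.54 (rank 3075 of 7914) and 2.06 (rank 5173 of 9391).

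AP2 lay far from the mark. The nearest wild-type domain was 14.3 kb from the gene body (chromosome 4, 17384343 to 17386311) and the nearest triple mutant domain was 10.6 kb from it, on the other side (chromosome 4, 17414088 to 17414870).

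The bodies of SMZ, SNZ and TOE1 held 1039, 171 and 30 bp covered in the wild type alone. None of the 4 bodies held a base covered in the triple mutant alone, as was the case for 78.6% of all coding genes and 73.1% of the 6505 genes marked in the wild type, so this sets the members little apart. Of these 6505 genes, 36.2% had lower coverage in the triple mutant, 16.8% had at least 10 percentage points less, and 6.83% ended under 50%. SMZ was in all 3 of these classes, and 5.04% of genes marked in the wild type had a larger decrease. For SNZ, with -6.88 points, the share with a larger decrease was 20.0%, and for TOE1, with -1.01 points, it was 33.0%.

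**Figure D3:**
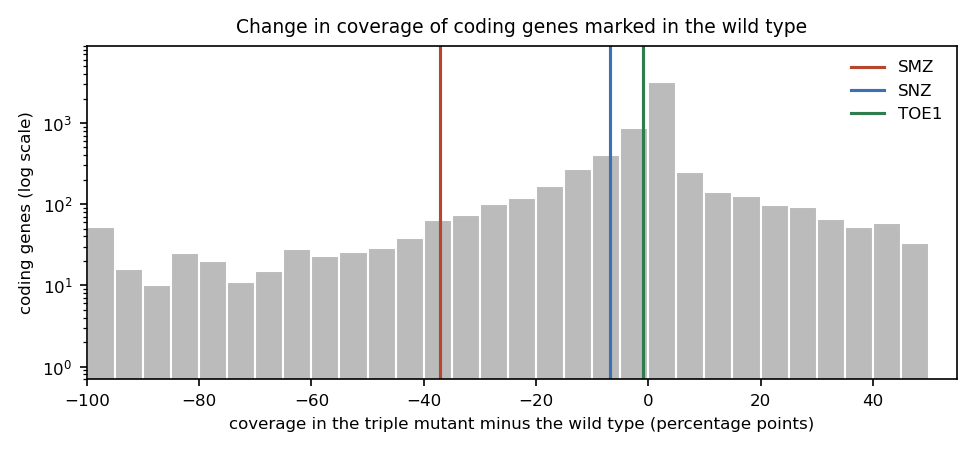
Number of coding genes marked in the wild type (log scale) by the coverage in the triple mutant minus that in the wild type, in bins of 5 percentage points, with vertical lines at SMZ (-37.04), SNZ (-6.88) and TOE1 (-1.01). Genes with equal coverage fall in the bin that begins at 0, and SMZ lies in the left tail while SNZ and TOE1 lie near the peak.

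No REF6-GFP summit lay within 1 kb of any of the 4 genes, in either list. Among coding genes, 25.1% had such a summit with DSG and 21.4% without it, and among genes marked in the wild type 13.3% and 10.6% did, and 4 genes are too few to set 0 apart from these shares. The nearest REF6-GFP summit with DSG was 8.41 kb from AP2, 11.9 kb from SNZ, 12.6 kb from SMZ and 13.7 kb from TOE1. Without DSG the nearest were 10.5 kb from AP2, 12.0 kb from SNZ, 12.6 kb from SMZ and 13.7 kb from TOE1. The median distance over all coding genes was 4978 bp with DSG and 6380 bp without it. With DSG, 36.8% of coding genes lay farther from a summit than AP2, 27.9% farther than SNZ, 26.4% farther than SMZ and 24.3% farther than TOE1. SMZ was 1 of 444 genes that were marked in the wild type and under 50% in the triple mutant. Of these, 17 (3.83%) had REF6-GFP bound with DSG, against 851 of 6061 genes marked in both genotypes (14.0%). Without DSG the shares were 2.70% and 11.2%. For REF6-ZnF-GFP they were 22.5% and 28.2% in the triple mutant and, in the opposite direction, 2.03% and 1.14% in ref6.

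**Figure D4:**
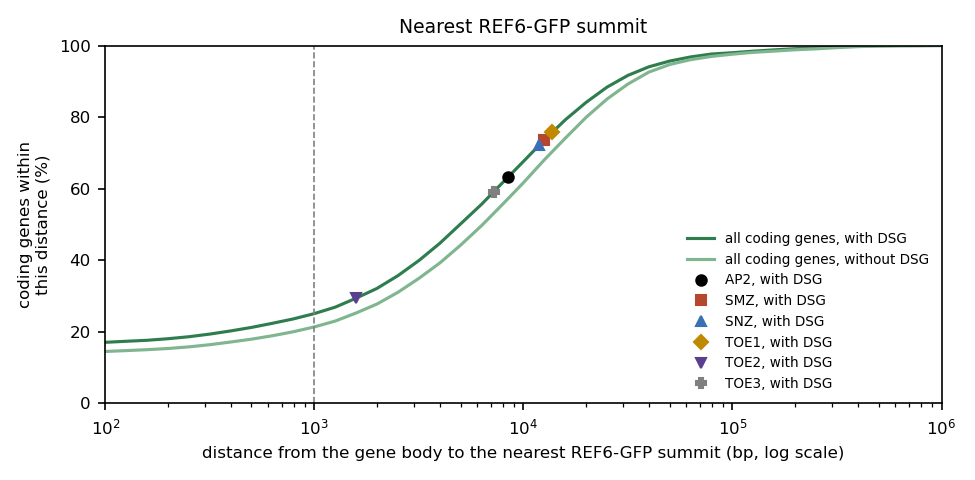
Percent of coding genes (lines) whose nearest REF6-GFP summit lies within a given distance in bp (log scale), with DSG (dark green) and without it (light green), and the positions of 6 AP2-type genes on the curve with DSG. The 4 repressors lie between 8410 and 13701 bp, beyond the 1 kb limit (dashed line) and above the median, and TOE2 is the closest at 1584 bp.

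REF6-ZnF-GFP in the triple mutant gave summits at the 3 marked genes and none at AP2. The SMZ summit lay 116 bp past the higher-coordinate end (peak at chromosome 3, 20376282 to 20376771), just inside the edge of the narrow triple mutant domain, with a fold of 3.82, rank 2086 of 9327, and a −log10 q of 12.5. SNZ had 2 summits. One was 196 bp outside the lower-coordinate end (peak at chromosome 2, 16388371 to 16388553), within the 750 bp gap between the triple mutant domains. This summit fell within the neighbouring coding gene AT2G39240, which lies 188 bp from SNZ. The other was 382 bp past the higher-coordinate end (peak at chromosome 2, 16391398 to 16392192), outside the domains of both genotypes. It lay between SNZ and the coding gene AT2G39260, which is 747 bp from SNZ, and was within 1 kb of both. The TOE1 summit was inside the body, 527 bp from the higher-coordinate end (peak at chromosome 2, 12227935 to 12228825), under the domains of both genotypes.

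The SNZ and TOE1 peaks were among the weakest of that list. Both SNZ peaks had a fold of 2.66 and a −log10 q of 4.85, the same pair of values as 389 peaks of the list, and 93.1% of peaks had a higher −log10 q. The TOE1 peak had a fold of 2.53 and a −log10 q of 4.81, and 97.9% of peaks had a higher −log10 q. The lowest −log10 q in the list was 4.69. At a −log10 q of at least 10, SMZ alone of the 4 genes kept a summit, and 16.0% of coding genes had one. A summit of this list lay at 35.1% of coding genes and at 27.8% of those marked in the wild type, but at 48.8% on chromosome 2 (SNZ and TOE1), 53.6% on chromosome 3 (SMZ) and 11.3% on chromosome 4 (AP2). The summit share of this list thus differed between chromosomes, and the part of this in the calls at the 4 genes was not tested. The next summits beyond the 1 kb limit were 2423 bp from SMZ and 4183 bp from TOE1. The list of REF6-ZnF-GFP in ref6, with summits at 1.08% of coding genes, had none nearer than 51.6 kb, the distance from TOE1.

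The genes next to the 4 were mostly free of the mark. Of the 8 coding genes flanking them, 1 on either side of each, 7 were at 0 coverage in both genotypes, where 59.4% of all coding genes were. The flanking genes are too few to set this count apart from that share. The exception was AT2G39240, 188 bp from SNZ, which had 46.2% of its body covered in wild-type and 40.5% in triple mutant flowers. The gene AT3G54980 overlapped SMZ by 544 bp at the end that the domains did not reach. LEJ2, on the lower-coordinate side of AP2, was the only neighbour with a REF6-GFP summit, both with and without DSG, where 25.1% and 21.4% of coding genes had one. REF6-ZnF-GFP in the triple mutant had summits at TON1A, next to SMZ, and at AT2G39240 and AT2G39260, next to SNZ. In that list 35.1% of coding genes had one, with 53.6% on chromosome 3 (TON1A) and 48.8% on chromosome 2 (the SNZ neighbours). The AT2G39240 summit and 1 of those at AT2G39260 are the summits already described at SNZ.

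The other AP2-type genes targeted by miR172, TOE2 (AT5G60120) and TOE3 (AT5G67180), were marked in neither genotype. TOE2 had no domain over its 4055 bp body, like AP2. A triple mutant domain of 5290 bp (chromosome 5, 24212410 to 24217699) began 667 bp past its end, where the wild type had none within 4.48 kb. This domain overlapped a REF6-GFP peak with DSG (chromosome 5, 24212363 to 24214231) that had a fold of 21.7, rank 44 of 5393. The summit of this peak was 1584 bp from TOE2, outside the 1 kb limit, and fell within the coding gene AT5G60130, named after its values were seen. TOE3 had 24.2% coverage in wild-type and 28.3% in triple mutant flowers, the direction opposite to that of SMZ, SNZ and TOE1. Neither gene had a summit of any REF6 list within 1 kb. Both lie on chromosome 5, where REF6-ZnF-GFP summits in the triple mutant were found at 5.94% of coding genes.

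Genes with the pattern most like each member over the 6 lists were ranked by the summed difference in percent coverage plus 100 for each REF6 list with another summit status, among 10370 other coding genes with a symbol. AP2 shared its pattern of 0 coverage and no summit with 3052 of them. For SMZ 1 gene lay within 10 points, MYB12, which encodes a regulator of flavonol synthesis (53.6% and 24.4% covered in the wild type and the triple mutant, 7.82 points away). The next were the transporter genes UMAMIT44 at 13.1 points and UMAMIT47 at 13.3 points. For SNZ 277 genes lay within 10 points, led by BNQ3, the peptide gene CLE27 and UGT85A1. For TOE1 66 did, led by HSFB4, GASA1 and ROH1. Genes this near to SNZ or TOE1 all share the REF6-ZnF-GFP summit in the triple mutant. That call is weak at SNZ and TOE1 and ends where a −log10 q of at least 10 is required.

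The miR172 genes, whose product targets the repressor transcripts, were themselves mostly under H3K27me3. The hairpins of MIR172A, MIR172B, MIR172C and MIR172D were fully covered in both genotypes, and that of MIR172E was at 0 in both. Among 326 microRNA genes, 41.7% were at least 50% covered in wild-type and 39.9% in triple mutant flowers. Of these 4, MIR172C had the highest-ranked domains, with a fold of 4.86 and rank 297 of 7914 in the wild type (chromosome 3, 3594761 to 3600484) and 3.74 and rank 989 of 9391 in the triple mutant. The MIR172B hairpin lay in 1 wild-type domain of 5967 bp (chromosome 5, 1185987 to 1191953), and the triple mutant had 3 domains of 626, 2012 and 1246 bp over that stretch. The wild-type domains around MIR172A and MIR172B were covered over 65.3% and 65.1% of their length by triple mutant domains. At MIR172D the triple mutant domain was longer, at 15779 bp against 7287 bp in the wild type. MIR172E lay 1229 bp from a wild-type domain and 1316 bp from a triple mutant domain.

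**Figure D5:**
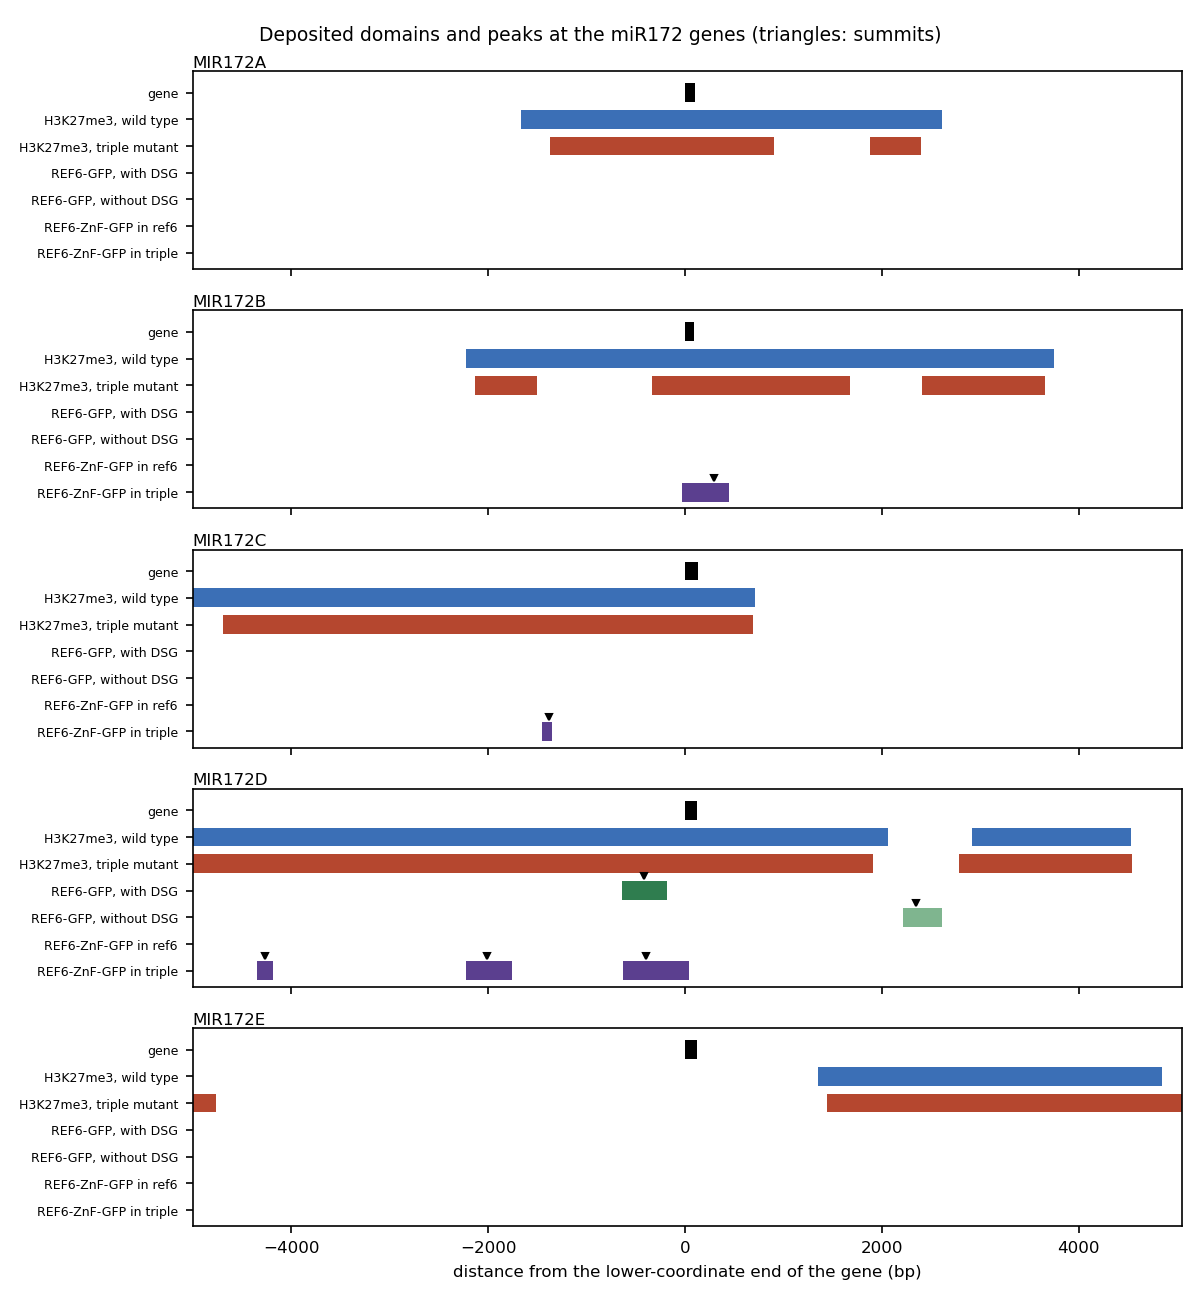
Deposited H3K27me3 domains (blue, wild type; red, triple mutant) and REF6 peaks (green and purple) around the 5 miR172 hairpins (black), by distance in bp from the lower-coordinate end of each hairpin, with triangles at summits. The hairpins of MIR172A to MIR172D lie under domains of both genotypes, MIR172E lies outside them, and a REF6-GFP peak is seen at MIR172D.

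MIR172D was the only miR172 gene with a REF6-GFP summit within 1 kb, and only with DSG, where 9.82% of microRNA genes had one. The summit was 411 bp from the hairpin (chromosome 3, 20587265 to 20587726), and its peak had a fold of 3.07, rank 4101 of 5393. Without DSG the nearest summit was 2222 bp away on the other side. REF6-ZnF-GFP in the triple mutant had a summit 391 bp from the MIR172D hairpin with a fold of 5.43, rank 502 of 9327, and one 206 bp from MIR172B with a fold of 3.59, rank 2697. In that list 18.4% of microRNA genes had a summit.

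The SPL genes, miR156 targets some of whose products activate miR172 genes in the age pathway, carried no mark in wild-type flowers. All 11 were unmarked in the wild type, with less than 10% of the body covered, like 70.9% of coding genes, and 3 gained the mark, where 6.29% of coding genes did. SPL9 went from 0 to 89.8% coverage, SPL6 from 0 to 96.3% and SPL2 from 0 to 50.8%. At SPL6 a wild-type domain of 7693 bp lay 70 bp from the body, and a triple mutant domain of 9745 bp reached over both. The nearest wild-type domain was 4.92 kb from SPL9 and 7.99 kb from SPL2. The SPL2 domain had a −log10 q of 5.45, so this call ends where at least 10 is required, and the SPL9 domain (chromosome 2, 17587312 to 17589558) had 16.6. REF6-GFP summits with DSG lay at 2 of the 11, SPL9 and SPL2, and without DSG at 1, SPL9. The shares over all coding genes were 25.1% and 21.4%. The nearest REF6-GFP summit to SPL6 was 31151 bp away with DSG and 31177 bp without it. REF6-ZnF-GFP in the triple mutant had summits at 7 of the 11, where 35.1% of coding genes had one. All 7 lie on chromosomes 1, 2 and 3, where 52.5%, 48.8% and 53.6% of coding genes had one. The SPL genes of chromosome 5 (SPL2, SPL13A and SPL13B) had none, and there the share was 5.94%. Whether the SPL genes differ from these shares was not tested. The 8 SPL genes that did not gain the mark were at 0 in both genotypes, among them SPL13A and SPL13B, near-identical copies whose reads may not be told apart.

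Among 14 known targets, partners and fellow regulators of the repressors, 7 were marked in each genotype, and none was gained or lost. The shares over all coding genes were 23.7% marked in the wild type, 30.9% marked in the triple mutant, 6.29% gained and 0.565% lost. FT was 63.5% covered in wild-type and 54.2% in triple mutant flowers. SOC1, a floral integrator, was 95.8% and 73.96% covered. SVP, which encodes a MADS-domain repressor, was 100% and 90.5% covered. TEM1 and TEM2, which encode other repressors of FT, differed by -0.85 and -2.95 points, AG was fully covered in both genotypes, and AGL15 was 9.30 points higher in the triple mutant. The corepressor and chromatin genes TPL, SEU, LUG and HDA19, whose products work with AP2, were at 0 in both genotypes. REF6-GFP summits with DSG lay at 5 of the 14 genes, these 4 and TEM2, where 25.1% of coding genes had one. Without DSG they lay at 4 of the 14, all of the 5 but LUG. CO, FKF1 and GI, of the photoperiod pathway, were at 0 and had no REF6 summit in any list within 1 kb.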

How the data were processed

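Per the submitters' processing notes, the tools were MACS2 2.1.0, Bowtie 1.1.2, deepTools and Picard 2.60, and the build was TAIR10; order, settings and controls are not stated there. The deposited lists have no header and were read in MACS2's column order. All peak names contain pooled, and each list was treated as 1 call per group. Fold enrichment is deposited as a linear ratio and q as −log10 q, both from the peak caller. The deposited score was not used. Domains with a q above 0.05 were kept (604 in the wild type, 564 in the triple mutant).

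Gene names and extents came from a RefSeq table of TAIR10.1, without strand, exons or sequence; printed coordinates are those of the deposited TAIR10 lists. REF6-GFP summits with DSG fell in coding genes for 85.9% unshifted, and for 64.5% and 63.8% when moved by 20000 bp either way. All 48 genes of the lists matched by identifier. Coverage, summit and distance calculations (Python 3.11.15, numpy 2.4.6, pandas 2.3.3) were tested on simulated data. Planned motif and protein comparisons were not run, as no sequence was used here.

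The members and lists were chosen with earlier results of these data known. Genes named are the 4 members, their coding neighbours, members of 5 pathway lists, and the 3 nearest patterns per member, unless more than 20 genes tied. Alternatives varied the domains used, the coverage limit, the region and the summit window.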

Additional observations from a re-analysis of the deposited data

How the results depend on the processing

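Each list was made from pooled samples, so no replicate could be left out. No paired analysis was possible because the deposited lists carry no replicate columns. The numbers of members marked in the wild type (3), marked in the triple mutant (2) and gained (0) were unchanged with −log10 q of at least 10 in either H3K27me3 list or in both, with q of at most 0.05, with 7914 domains in each list, with 1 kb added on either side and with a limit of 30% coverage. The q limits and the equal list length could not change these counts. Each domain over a member body had a −log10 q of 23.1 or more, and AP2 had no domain. At equal length, triple mutant domains were kept down to a −log10 q of 2.87. With a limit of 80%, 2 were marked in the wild type, since SMZ was under it. The SMZ coverage ranged from 53.8% to 56.6% in the wild type and from 13.9% to 19.5% in the triple mutant, the lower values coming from the region with 1 kb on either side. The number of members with a REF6-ZnF-GFP summit in the triple mutant went from 3 to 1 where the summit had to lie in the body (TOE1), and to 1 with −log10 q of at least 10 (SMZ). The number with a summit stayed at 0 in the other REF6 lists under all alternatives, including a window of 5 kb, added after the data were seen. These alternatives could not give another count. The nearest summit of those lists lay 8.41 kb from a member, and a stricter q limit only removes summits. Without replicates or depth, a domain edge cannot be given an error.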

Other observations

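Of 12 other genes of the AP2 class, which are not miR172 targets, 5 were marked in each genotype. The others ranged from no to intermediate coverage. Over all coding genes the marked share was 23.7% for wild-type flowers and 30.9% for triple mutant flowers. Whether the class differs from these shares was not tested. BBM, PLT1, AIL5 and AT1G72570, of the embryo and root meristem group or close to it, were fully covered in both genotypes, and PLT2 was at 100% and 95.5%. ANT, a promoter of organ growth that is active in flowers, was 7.39% covered in wild-type flowers and at 0 in triple mutant flowers, but its only domain was 214 bp wide with a −log10 q of 0.916, a q above 0.05, and with q of at most 0.05 required ANT was at 0 in both. AIL6 was 39.7% and 37.3% covered, and AIL7 20.3% and 27.6%.

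WRI1, a regulator of seed oil synthesis, had the largest difference in this group, from 2.75% in wild-type to 40.9% in triple mutant flowers. It had 2 REF6-GFP summits with DSG and 2 without it, all in the gene body, and the stronger with DSG had a fold of 6.01, rank 1843 of 5393 (peak at chromosome 3, 20117663 to 20118435). WRI3 and WRI4 had no coverage in wild-type flowers and 7.30% and 9.82% in triple mutant flowers, and AT2G41710 was at 0 in both. The WRI3 and WRI4 domains were 250 and 337 bp wide, with −log10 q of 5.07 and 4.87, so both end where at least 10 is required. WRI4 also had a REF6-GFP summit in its body with DSG, and WRI3 had one 506 bp away without DSG. Neither had one within 1 kb in the other of these lists. The WRI4 peak ranked 4713 of 5393 by fold. The WRI3 peak had a −log10 q of 9.70, and 99.3% of peaks had a higher one. Counting WRI1, 2 of the 12 genes had a summit within 1 kb in each list. The shares over all coding genes were 25.1% with DSG and 21.4% without it.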
